A study of Mus musculus with 11 samples.

Results

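Leptomeningeal cells were 1861 of the 110304 brain nuclei in the deposited annotation, or 1.69%. They were taken as the nuclei whose predicted cell class the authors had named leptomeningeal, without further selection. The study dosed mice intravenously with an antisense oligonucleotide (ASO) against Malat1, free or attached to a carrier protein, to ask how systemic delivery changes the target RNA in brain. Nuclei from frozen brain were profiled in droplets by RNA sequencing of single nuclei, with 11 libraries in all. The labels give every mouse 2 copies of a knocked-in human transferrin receptor (TfR). Each mouse received 4 weekly doses and was sampled 72 hours after the last. The control group, ATV:BACE1 (n = 3), received 57 mg/kg of a TfR-binding protein that carries no ASO. The OTV:Malat1 group (n = 3) received 60 mg/kg of a TfR-binding carrier with the ASO, and the nonTV:Malat1 group (n = 3) 60 mg/kg of a carrier without TfR binding with the ASO. The Malat1 ASO group (n = 2) received 2.5 mg/kg of the free ASO. No group without a test article is among the libraries used here. Replicate 1 of each group was a female of 2.33 months, replicate 4 a male of 2.57 months and replicate 5 a male of 2.33 months. These numbers coincide with the deposited batches 1, 3 and 4. Each batch holds 1 sex and 1 age, so a difference between batches 1 and 4 cannot be told apart from sex, nor 1 between batches 3 and 4 from age. The labels call the tissue posterior brain, and the deposited annotation calls it cortex and names the strain as C57BL/6J, without the knock-in.

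The leptomeninges are the pia mater, which covers the brain surface and follows its vessels inward, and the arachnoid, whose barrier layer seals the cerebrospinal fluid from the dura. Their main cells are fibroblasts, which make collagen and laminin, secrete retinoic acid and prostaglandin D synthase, and carry amino acid and GABA transporters. Malat1 is an abundant long non-coding RNA that stays in the nucleus, where an ASO can direct RNase H to cut it.

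Each library held 114 to 258 leptomeningeal nuclei with 111984 to 465754 unique molecular identifiers (UMIs, each 1 counted RNA molecule) in all. The median nucleus had 1188 UMIs and 868 detected genes, and the medians of single libraries ran from 825 to 1509 UMIs. The OTV:Malat1 replicate 5 library was the shallowest of the 11. The median class prediction score was 0.939, and 118 nuclei (6.34%) scored under 0.5. The authors' doublet call marked 82 nuclei (4.41%), against 10.4% of all nuclei. In 55 leptomeningeal nuclei the cell barcode also occurred in another library, as it did in 3011 of all nuclei.

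The 4 markers of the class were each higher in leptomeningeal nuclei than in the remaining nuclei in 11 of 11 libraries. Values below are in CPM, the UMIs of a gene scaled to a fixed total of UMIs, summed over the nuclei of a class, and each gene is compared with itself in other classes. Slc6a13, the GABA transporter GAT2 (chr6:121300227-121337733, mm10, GENCODE M21), stood at 482 CPM with libraries from 409 to 530, and the next class, vascular smooth muscle, reached 81.7. Ptgds, the prostaglandin D synthase (chr2:25466709-25470046), stood at 6086 CPM against 1220.5 in vascular smooth muscle, and its libraries spread from 3404 to 8384. Dcn, the small proteoglycan decorin (chr10:97479609-97518143), stood at 196 CPM against 67.6. Col1a2, a chain of type I collagen (chr6:4504814-4541544), stood at 174 against 62.0. The predicted names may rest on these same genes, so these values describe the class and were not tested.

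The RefSeq promoter windows of Slc6a13 and Ptgds are shown because these are the markers with the highest ratio to any other class. Each runs from 250 bases before to 50 bases after RefSeq's transcription start in build GRCm38.p6, Ptgds at chr2:25469700-25469999 on the minus strand and Slc6a13 at chr6:121300038-121300337 on the plus strand. Capitals mark CANNTG, the E-box letters that basic helix-loop-helix factors bind, which read alike on both strands.
Ptgds: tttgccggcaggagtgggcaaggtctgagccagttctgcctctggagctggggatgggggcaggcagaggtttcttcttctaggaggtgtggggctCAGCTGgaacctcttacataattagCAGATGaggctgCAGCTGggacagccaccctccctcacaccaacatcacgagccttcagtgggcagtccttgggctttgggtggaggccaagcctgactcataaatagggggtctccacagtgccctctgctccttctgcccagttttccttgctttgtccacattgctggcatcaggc
Slc6a13: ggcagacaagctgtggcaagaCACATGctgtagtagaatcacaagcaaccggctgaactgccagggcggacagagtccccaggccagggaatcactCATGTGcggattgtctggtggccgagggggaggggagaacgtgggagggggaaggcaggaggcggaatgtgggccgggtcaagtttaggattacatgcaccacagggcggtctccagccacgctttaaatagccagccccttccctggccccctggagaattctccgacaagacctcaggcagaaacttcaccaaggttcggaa
The letters occurred 3 times in the Ptgds window, starting at positions -154, -129 and -117 from the start, and 2 times in the Slc6a13 window, at -229 and -154. Of 32851 RefSeq mouse promoters of this length, 72.3% held the letters at least once, 39.6% at least 2 times and 17.6% at least 3 times. A match to these letters is a description of the window. The GENCODE span of Ptgds covers its window, and that of Slc6a13 begins inside it.

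In the class 20598 genes had at least 1 UMI and 2235 reached 100 CPM. Of these, 34 were over 5 times and 16 over 10 times the level of the next class. Aldh1a2, which makes retinoic acid, reached 273 CPM against 7.21 in perivascular macrophages, a ratio of 37.9. Prdm6, a SET-domain transcription regulator, reached 362 CPM (ratio 30.4), and Eya2, a transcription co-activator, 620 CPM (ratio 20.2). Adam12, a membrane metalloprotease, reached 1288 CPM (ratio 21.8), and Adamts12, a secreted one, 368 CPM (ratio 19.1). Gxylt2, a Notch-modifying glycosyltransferase, reached 182 CPM (ratio 21.5), and Aox3, an aldehyde oxidase, 275 CPM (ratio 19.5). Cdh1, the epithelial cadherin of the arachnoid barrier, reached 115 CPM (ratio 18.1) but ranged from 0 to 268 between libraries. The unannotated transcripts 9130410C08Rik (ratio 36.5) and Gm33906 (ratio 18.2), at 103 CPM each, complete the 10 highest ratios.

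Among genes with many UMIs in the class, chosen here after their values were seen, Trpm3 and Slc6a20a were shared with another class. Alcam, Slc7a11, Ranbp3l and Bnc2 stood further above the next class. Trpm3, a cation channel, stood at 13340 CPM and also reached 10727 in the class named glia. Slc6a20a, a proline transporter, stood at 1593 CPM with 1280 in vascular smooth muscle. Alcam, an adhesion molecule, stood at 2701 CPM and reached 405 in neurons, the next class. Slc7a11, the cystine-glutamate antiporter, stood at 1941 CPM and reached 450 in astrocytes. Ranbp3l stood at 1644 CPM against 120 in astrocytes, and Bnc2, a zinc-finger transcription factor, at 949 against 59.7.

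**Figure D1:**
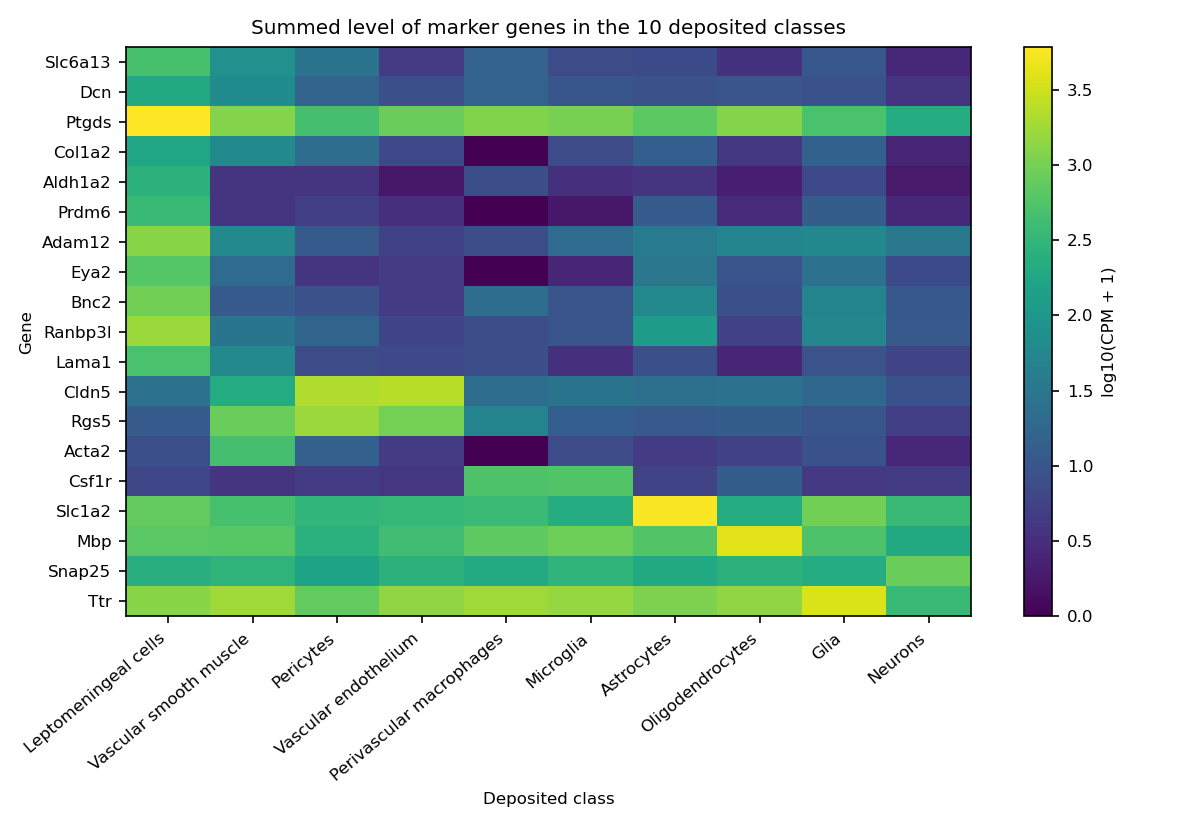
Heat map of log10(CPM + 1) for 19 genes (rows) in the 10 deposited classes (columns), each value summed over 11 libraries. The rows from Slc6a13 to Lama1 are brightest in the leptomeningeal column, for example Aldh1a2 at 273 CPM, and the rows from Cldn5 down are markers of other classes.

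Marker lists of fibroblast kinds were highest in the class for 3 of 5 lists. The 10 genes of the leptomeningeal fibroblast list summed to 11893 CPM against 1956 in vascular smooth muscle, and 10 of 10 were highest in the class. The pial and perivascular fibroblast list summed to 1694 against 1088 CPM (5 of 8 genes highest in the class) and the arachnoid fibroblast list to 335 against 25.4 (3 of 4). For the arachnoid barrier list the sum was 643 CPM, below the 909 of vascular endothelium, with 3 of 6 genes highest in the class. For the dural fibroblast list the sum was 310 CPM, below the 536 of pericytes, and Dpt, which encodes dermatopontin, had 0 of 2811531 UMIs, which allows up to 1.07 CPM. Lists of other cell types were lower than in the class where they peaked: endothelium at 296 against 12638 CPM in vascular endothelium, pericyte at 479 against 7069 and smooth muscle at 69.0 against 1345 in vascular smooth muscle, and microglia and macrophage at 61.5 against 7710 in perivascular macrophages. Lists of neurons (759 against 4476 CPM), astrocytes (2053 against 8303) and oligodendrocytes (1433 against 12737) were also present. So were those of oligodendrocyte precursors (381 against 1780 in astrocytes) and of choroid plexus and ependyma (1417 against 11489 in the class named glia). The melanocyte list summed to 3.20 CPM, with 4 of 4 genes under 10 CPM.

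Clustering the 1861 nuclei alone, with Malat1, Xist, Tsix and the Y-linked genes left out and other X-linked genes kept, gave 12 clusters. Genes that define a cluster are described, not tested, since the same counts made the clusters, and those named beyond the 5 leading ones were chosen after their values were seen. Clusters 0 to 3 held 1283 nuclei (68.9%). In cluster 0 (404 nuclei) Slc7a11 was at 4948 CPM against 1452 in the other clusters, Aox3 at 775 against 194, and Ndnf, Coch and 6530403H02Rik were among the leading genes by ratio. Il34, a ligand of the CSF1 receptor, was at 407 against 139 there, higher in 11 of 11 libraries. In cluster 1 (328 nuclei) Ptgds was at 13644 CPM against 4726, Nnat, the imprinted neuronatin, at 5750 against 953, and Ppp1r1a, a phosphatase inhibitor, at 1026 against 159. Rspo2, a Wnt amplifier, stood at 424 against 35.3, followed by Cftr, Pkhd1 and Gm43464 in the order of ratios.

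Cluster 2 (321 nuclei) was led by Gm30613, Gm21847, Kcnd3, Il31ra and Abi3bp. Errfi1, a feedback inhibitor of the EGF receptor, was at 1015 against 247 CPM there. Cyp26b1, which breaks down retinoic acid, was at 104 against 21.9 CPM but was higher in 6 of 11 libraries. Cluster 3 (230 nuclei) carried over 2-fold more of 6 of the 8 pial and perivascular fibroblast markers and is called pial and perivascular fibroblast-like. Lama1, a laminin of the pial basement membrane, was at 2098 against 359 CPM, Pdgfra at 773 against 146, Col15a1 at 282 against 17.8 and Eln, elastin, at 973 against 117. Gm30624, Gm20758, Gm47865 and Abca8a were its other leading genes, and Itih5, a matrix-binding protein, was at 1277 against 155.

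Smaller clusters had sharper programmes. Cluster 4 (148 nuclei) had Slc47a1, an organic cation exporter, at 1600 against 18.5 CPM, Slc4a10, a bicarbonate transporter, at 4317 against 97.7, Slc26a7 at 545 against 4.83 and Kcnb2 at 2843 against 81.6. Its Adamtsl3 stood at 1345 against 16.9, the axon guidance cue Slit2 at 1622 against 50.7, and Mgp, matrix Gla protein, at 911 against 116. Both the dural fibroblast list (median log2 ratio 2.46) and the arachnoid barrier list (1.66) were raised in it and its median prediction score was 0.60, so it is kept by number. Cluster 6 (81 nuclei) is called arachnoid barrier-like, with Dpp4, a surface peptidase, at 1162 against 44.3 CPM, Cdh1 at 763 against 78.2 and Cldn11, a tight junction claudin, at 584 against 61.3. These are the 3 of its 6 list members over 2-fold higher, while the list member Slc47a1 was at 13.3 CPM in cluster 6, against 1600 in cluster 4, and Krt18 at 0. Prg4, lubricin, was at 1268 against 74.8 there and Fn1, fibronectin, at 2117 against 156, and Slc7a14, Gm13561, Cubn and Dapl1 were among its leading genes. Cluster 9 (47 nuclei) had Itga8 at 1884 CPM, Alpl at 1064 against 13.8, Dach1 at 2651 against 52.6, Hpgd at 419 against 3.99 and Nr1h4 at 663 against 14.9. Slc6a13 had 0 of 57331 UMIs in cluster 9, which allows up to 52.3 CPM, against 492 CPM in the other clusters, and it stays unnamed.

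**Figure D2:**
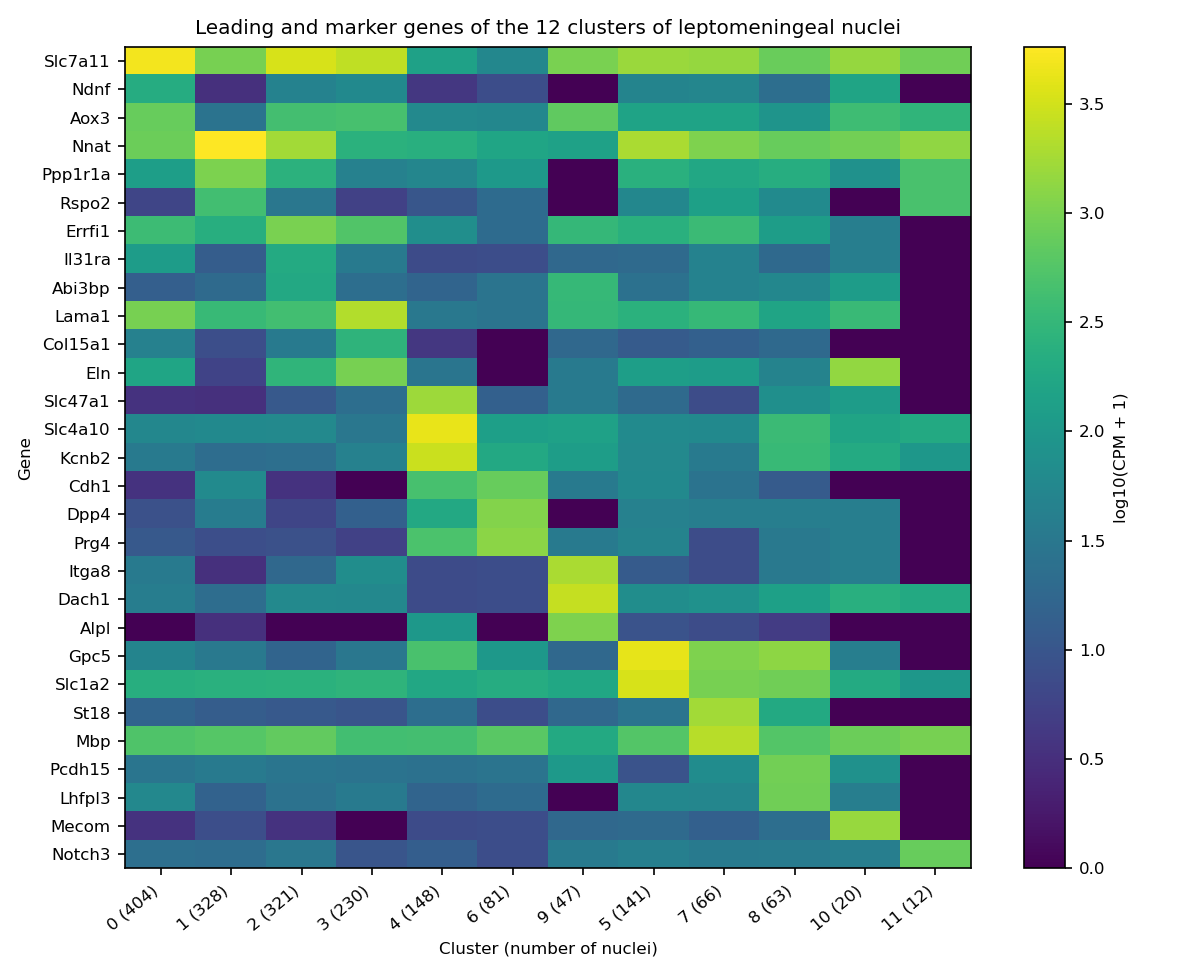
Heat map of log10(CPM + 1) for 29 leading or marker genes (rows) in the 12 clusters (columns, with their number of nuclei). Clusters 4, 6 and 9 each have a block of their own, such as Slc47a1, Dpp4 and Itga8, and clusters 5, 7 and 8 show glial genes such as Gpc5, St18 and Pcdh15.

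The other 5 clusters, with 302 nuclei (16.2%), were led by genes of another class and held 79 of the 82 called doublets. Cluster 5 (141 nuclei) carried astrocyte genes such as Gpc5 (4227 against 303 CPM) together with Gm6145, Gm12239, Gm3764 and Rgs20. Cluster 7 (66 nuclei) carried oligodendrocyte genes such as St18 (1759 against 33.1) with Prr5l, D7Ertd443e, Sec14l5 and Slc24a2. Cluster 8 (63 nuclei) carried oligodendrocyte precursor and neuronal genes such as Pcdh15 (913 against 30.0), Lhfpl3, Tnr, Dscam and Nrg1. Cluster 10 (20 nuclei) carried the endothelial genes Mecom, Ptprb, Sgpp2, Bmx and Egfl7, and cluster 11 (12 nuclei) the pericyte-type genes Plxdc1, Slc38a11, Morrbid, Trpc4 and Ano1. Called doublets were 16.3% of cluster 5, 30.3% of cluster 7 and 57.1% of cluster 8, against 3 of the 1559 nuclei in the 7 remaining clusters. Malat1 and the called genes are therefore also given without these 5 clusters.

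Cluster shares by batch are given without a test. Cluster 4 averaged 11.1% of leptomeningeal nuclei in the 4 batch 1 libraries, 7.30% in batch 3 and 3.17% in batch 4, with 0 nuclei in OTV:Malat1 replicate 5. Cluster 6 averaged 6.05%, 3.62% and 2.15% in the same order. Batches 1 and 4 share their age and differ in sex, and batches 3 and 4 share their sex and differ in age. With a higher clustering resolution, more components or called doublets left out, 97.5 to 100% of the nuclei of clusters 4, 6 and 9 stayed together, and 73.5 to 98.8% of those of clusters 0 to 3. These settings gave 14, 10 and 10 clusters. A share that stayed together does not show that a cluster stayed apart from the others, since it stays high when clusters merge.

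**Figure D3:**
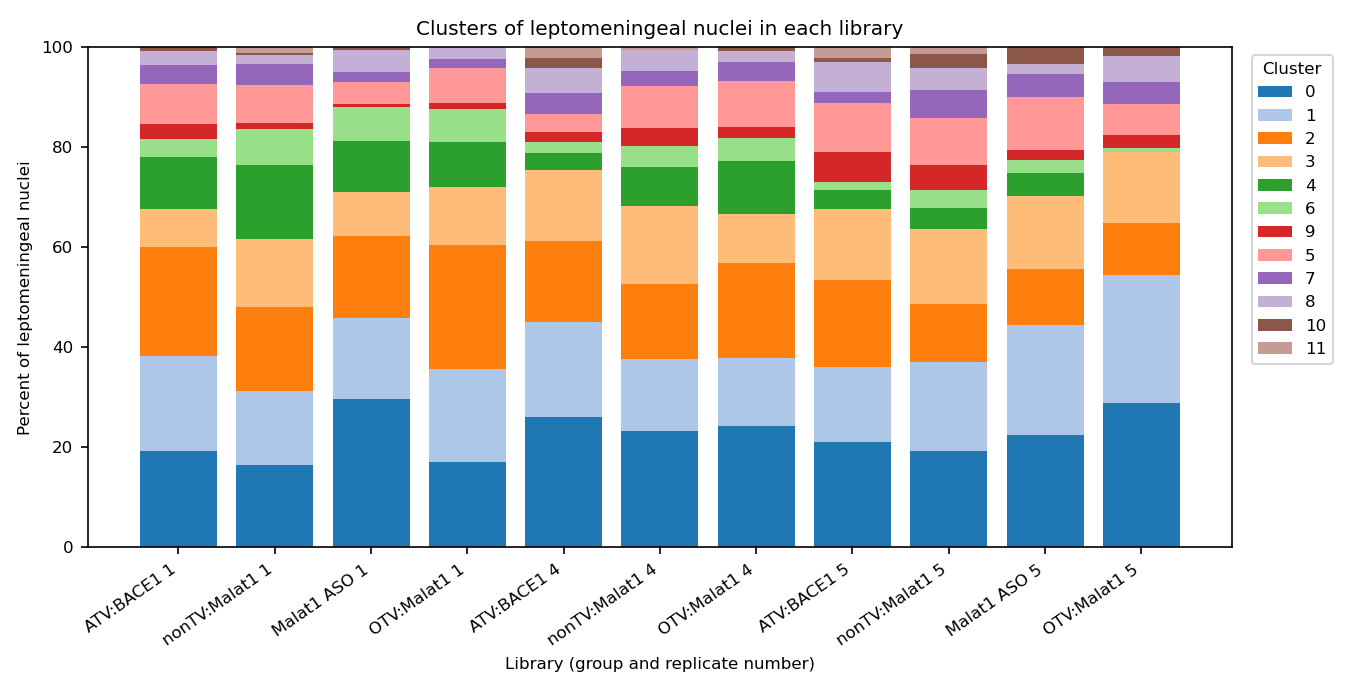
Percent of leptomeningeal nuclei in each of 12 clusters (stacked colours) in the 11 libraries, ordered by replicate number. The band of cluster 4 narrows from an average of 11.1% in the replicate 1 libraries to 3.17% in the replicate 5 libraries.

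No difference between groups in the share of leptomeningeal nuclei passed the test. The share was 1.60 ± 0.338% (SD, n = 3) in ATV:BACE1, 1.96 ± 0.502% (n = 3) in nonTV:Malat1, 1.67 ± 0.813% (n = 3) in OTV:Malat1 and 1.60 ± 0.192% (n = 2) in Malat1 ASO. In exact two-sided permutation tests over libraries the 5 contrasts had adjusted p = 1, and the smallest p the design allows is 0.1 for 3 against 3 libraries and 0.2 for 2 against 3. The batch means, 2.15%, 1.72% and 1.28% in batches 1, 3 and 4, lay further apart than the group means, and the test has no batch term. Within batches the share in nonTV:Malat1 was above that in ATV:BACE1 in 3 of 3 (2.45% and 1.99%, 1.98% and 1.43%, 1.45% and 1.38%). It was above that in OTV:Malat1 in 3 of 3 as well (OTV:Malat1 at 2.44%, 1.75% and 0.824%).

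Malat1 (chr19:5795690-5802672, minus strand, a long intergenic RNA), the target of the ASO, was lower in leptomeningeal nuclei of OTV:Malat1 mice by a small margin that did not pass the threshold across all genes. It took 8.76%, 8.56% and 9.47% of leptomeningeal UMIs in replicates 1, 4 and 5 of ATV:BACE1, against 7.70%, 6.55% and 7.38% in OTV:Malat1. In nonTV:Malat1 it took 8.28%, 8.78% and 9.91%, while replicates 1 and 5 of Malat1 ASO had 8.83% and 8.39%. The 3 OTV:Malat1 libraries lay below the 8 others. Groups whose libraries did not overlap between OTV:Malat1 and ATV:BACE1 were seen in 8.21% of the 6529 genes tested.

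By edgeR's quasi-likelihood test with the batch as a block, Malat1 differed between OTV:Malat1 and ATV:BACE1 by a log2 change of -0.33 (SE 0.095, 95% interval -0.52 to -0.14). Its p was 0.00126 and its Benjamini-Hochberg adjusted p 0.996. Within batches 1, 3 and 4 the log2 ratio was -0.19, -0.41 and -0.38. Against nonTV:Malat1 the change was -0.34 (edgeR adjusted p = 0.453) and against Malat1 ASO -0.24 (edgeR adjusted p = 0.948). The latter was -0.10 without Malat1 ASO replicate 1 and -0.37 without replicate 5. The nonTV:Malat1 and Malat1 ASO groups stood 0.01 and -0.09 from ATV:BACE1 on the log2 scale (edgeR adjusted p = 1.00 and 0.928). Without the filter on low counts the OTV:Malat1 change passed against ATV:BACE1 (-0.35, SE 0.060, edgeR adjusted p = 9.92e-05) and against nonTV:Malat1 (-0.36, SE 0.060, adjusted p = 1.95e-05). The changes were close to those with the filter, where the SE was 0.095 in both contrasts. The pass therefore rests on a smaller estimate of the spread, made with 20598 genes in the fit, and not on a larger change. Thinned to 1000 UMIs per nucleus, the library medians were 79, 66 and 62.5 Malat1 UMIs in OTV:Malat1 and 88, 87 and 95 in ATV:BACE1 (exact two-sided permutation p = 0.1, the smallest for 3 against 3). The difference of the means was -20.8 UMIs, and this depth kept 32 of the 114 nuclei of OTV:Malat1 replicate 5. Per 1000 UMIs it was -10.3 when thinned to 500 UMIs, -11.4 without thinning, and -10.3 at 1000 UMIs without the 5 clusters led by another class.

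The size of the difference varied between clusters, and this variation was not tested. In clusters 5, 7 and 8 the Malat1 share was 9.49 ± 0.884% (SD, n = 3) in ATV:BACE1, 10.4 ± 1.42% (n = 3) in nonTV:Malat1, 9.84 ± 0.532% (n = 2) in Malat1 ASO and 5.30 ± 0.457% (n = 3) in OTV:Malat1. These clusters held 75 nuclei in ATV:BACE1 and 67 in OTV:Malat1. In clusters 0 to 3, with 351 and 364 nuclei, the share was 8.13 ± 0.240% in ATV:BACE1 and 7.98 ± 0.509% in OTV:Malat1 (SD, n = 3 each), and these libraries overlapped. Within batches the log2 ratio of OTV:Malat1 to ATV:BACE1 was -0.64, -0.89 and -0.99 in clusters 5, 7 and 8. It was -0.07, -0.19 and -0.05 in all nuclei outside the 5 clusters led by another class.

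With those 5 clusters left out, OTV:Malat1 stood -0.12 from ATV:BACE1 in Malat1 on edgeR's log2 scale, -0.04 from nonTV:Malat1 and -0.0011 from the free ASO group. In the authors' main cluster these differences were -0.17, -0.11 and -0.06 in the same order. Fitted within single clusters in libraries with at least 20 nuclei, the difference from ATV:BACE1 was -0.08 in cluster 0 (95% interval -0.38 to 0.23), 0.01 in cluster 1 (-0.18 to 0.19) and -0.02 in cluster 2 (-0.37 to 0.33). The rule of at least 20 nuclei left out OTV:Malat1 replicate 4 in cluster 1 (18 nuclei) and OTV:Malat1 replicate 5 in cluster 2 (12 nuclei). In cluster 3, the pial and perivascular fibroblast-like nuclei, the difference from ATV:BACE1 was 0.00 with at least 10 nuclei per library (-0.25 to 0.25). Cluster 4 held 10.8%, 9.55% and 9.27% Malat1 in the ATV:BACE1 libraries (24, 5 and 5 nuclei) and 8.86% and 7.11% in the OTV:Malat1 libraries with nuclei there (23 and 14). It held 9.44%, 10.6% and 7.90% in nonTV:Malat1 (35, 13 and 6 nuclei). The Malat1 ASO libraries, at 8.08% and 8.55% (16 and 7 nuclei), also lay below the ATV:BACE1 libraries there. In cluster 6, the arachnoid barrier-like nuclei, the share was 8.44 ± 2.04% (SD, n = 3) in ATV:BACE1 and 7.86 ± 1.49% (SD, n = 3) in OTV:Malat1, from 13 and 24 nuclei. Cluster 9, singled out after its values were seen and with no test, had 11.4%, 11.6% and 11.8% in the ATV:BACE1 libraries and 1.95% to 6.56% in the 8 libraries of the 3 ASO groups.

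**Figure D4:**
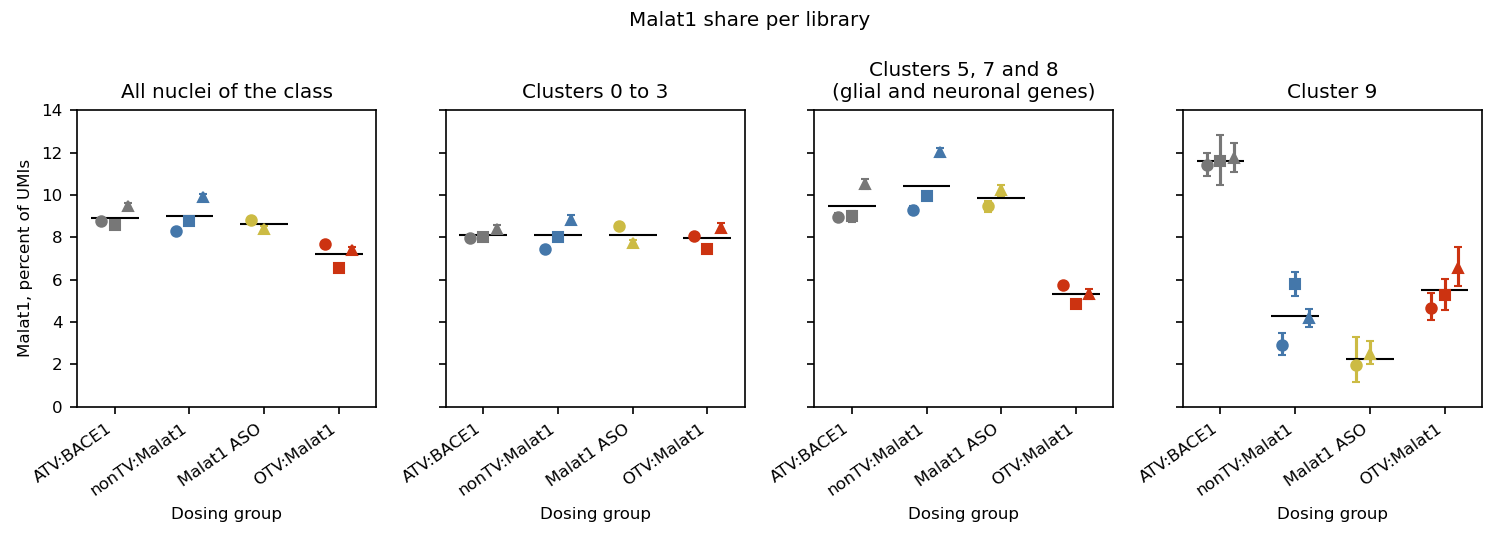
Malat1 as a percent of UMIs (y axis) in each library (points, with circles, squares and triangles for replicates 1, 4 and 5, bars are Wilson 95% intervals that cover counting error) by dosing group, with group means as lines. The OTV:Malat1 libraries lie below the others in the whole class and in clusters 5, 7 and 8, overlap them in clusters 0 to 3, and lie with the nonTV:Malat1 and Malat1 ASO libraries below ATV:BACE1 in cluster 9.

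Vascular endothelium changed far more. Its Malat1 share averaged 6.24 ± 0.378% (SD, n = 3) in ATV:BACE1 and 1.83 ± 0.384% (n = 3) in OTV:Malat1. It was also below ATV:BACE1 in nonTV:Malat1 (4.72 ± 0.453%, n = 3) and Malat1 ASO (3.90 ± 0.422%, n = 2). The part of TfR binding in these differences was not tested. In a model over both classes the log2 change of OTV:Malat1 against ATV:BACE1 was 1.50 higher in leptomeningeal nuclei than in endothelium (SE 0.207, edgeR adjusted p = 2.53e-05). Malat1 was the 1 gene called among 6769 (0.0148%). The same difference was 0.52 against the class named pericytes (SE 0.198), which also held endothelial markers (Flt1 at 4281 CPM against 5558 in vascular endothelium, Cldn5 at 2178 against 2390), and 0.16 against the class named glia (SE 0.221), neither of which passed (edgeR adjusted p = 1 each, with 0% of genes called in either model). Without the 5 clusters led by another class these differences were 1.73, 0.74 and 0.41. Mean Malat1 shares in ATV:BACE1 and OTV:Malat1 were 9.04% and 1.80% in oligodendrocytes, and 9.55% and 8.28% in vascular smooth muscle, given here without a test.

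Few other genes of the class passed the test between groups, which does not show that the others did not differ. For OTV:Malat1 against ATV:BACE1, 0 of 6529 genes were called at an adjusted p under 0.05 (0%) and 291 had an unadjusted p under 0.05 (4.46%). For OTV:Malat1 against nonTV:Malat1, 0 genes were called (0%) and 338 had an unadjusted p under 0.05 (5.18%). For nonTV:Malat1 against ATV:BACE1, 1 gene was called (0.0153%), for Malat1 ASO against ATV:BACE1, 6 (0.0919%), and for OTV:Malat1 against Malat1 ASO, 1 (0.0153%). Unadjusted p under 0.05 was reached by 352 (5.39%), 457 (7%) and 317 (4.86%) genes in these 3 contrasts. The comparisons share the ATV:BACE1 or the OTV:Malat1 libraries. Fitted without the batch block, or by DESeq2 with batch as a term, each contrast had 0 called genes, so each call below rests on the block and on edgeR.

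Zbtb16, a zinc-finger transcription repressor induced by glucocorticoids, rose most clearly, in the free ASO group. Values here are CPM scaled by the TMM factors. Zbtb16 stood at 424 and 249 in Malat1 ASO replicates 1 and 5, and at 151, 126 and 70.0 in ATV:BACE1 replicates 1, 4 and 5. The other groups overlapped the control libraries, at 174, 215 and 59.6 in nonTV:Malat1 and 246, 171 and 121 in OTV:Malat1. Paired with ATV:BACE1 within batches, replicates 1, 4 and 5 of OTV:Malat1 were each higher (log2 ratios 0.70, 0.43 and 0.78). In nonTV:Malat1 these ratios were 0.21, 0.76 and -0.22. The fitted changes, 0.63 in OTV:Malat1 (SE 0.248) and 0.35 in nonTV:Malat1 (SE 0.253), did not pass. The log2 change of Malat1 ASO against ATV:BACE1 was 1.65 (SE 0.260, edgeR adjusted p = 0.000717), and it was 1.48 and 1.80 within batches 1 and 4. Without the block it was 1.50 (edgeR adjusted p = 0.999), and by DESeq2 the adjusted p was 0.0523. Cluster 4 held 177 of its UMIs, more than any other cluster, and the summed level there was 1047 CPM in Malat1 ASO and 345 in ATV:BACE1. The libraries of these groups did not overlap, as for 19.1% of the genes tested.

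Fkbp5, a co-chaperone of the glucocorticoid receptor, also rose. It stood at 490 and 376 in Malat1 ASO, against 278, 246 and 165 in ATV:BACE1, a log2 change of 1.04 (SE 0.219, edgeR adjusted p = 0.0381). In OTV:Malat1 the 3 libraries had 396, 367 and 172, and the change there was 0.46 (edgeR adjusted p = 0.996). Glul, glutamine synthetase, stood at 772 and 592 in Malat1 ASO against 389, 392 and 273, a change of 0.96 (edgeR adjusted p = 0.0381). Crim1, a membrane protein that binds BMPs, stood at 494 and 221 against 168, 153 and 127, a change of 1.22 (edgeR adjusted p = 0.0281). Within batches 1, 3 and 4 Crim1 was also above ATV:BACE1 in OTV:Malat1 (log2 ratios 0.77, 0.28 and 0.80) and nonTV:Malat1 (0.90, 0.45 and 0.28). For Glul these ratios were 0.40, -0.06 and 0.45 in OTV:Malat1 and 0.63, 0.07 and 0.18 in nonTV:Malat1. None of these differences passed in the fit over all libraries. Crim1 and Fkbp5 had 213 and 245 of their UMIs in cluster 4, a larger number than in any other cluster. Glul was spread over the clusters, with the most UMIs (217) in cluster 5, which carried astrocyte genes. Its summed level there was 865 CPM in Malat1 ASO against 391 in ATV:BACE1. In the same order it was 728 against 321 in cluster 0, 792 against 442 in cluster 1 and 309 against 214 in cluster 4. In cluster 9 Glul had 0 UMIs in Malat1 ASO and 7 in ATV:BACE1.

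Prg4 and Dpp4, leading genes of the arachnoid barrier-like cluster, rose in Malat1 ASO, and Prg4 also in nonTV:Malat1. Prg4 stood at 309 and 83.0 in Malat1 ASO, 299.8, 159 and 101 in nonTV:Malat1 and 97.1, 66.5 and 50.9 in ATV:BACE1. The log2 change against ATV:BACE1 was 1.43 in Malat1 ASO (edgeR adjusted p = 0.0381) and 1.41 in nonTV:Malat1 (SE 0.271, adjusted p = 0.0305). The nonTV:Malat1 libraries lay above the ATV:BACE1 libraries, and 7.92% of genes did not overlap between these groups. OTV:Malat1 had 176, 114 and 20.2, which spans the control libraries. Dpp4 stood at 260 and 88.5 in Malat1 ASO against 83.7, 59.8 and 31.8 in ATV:BACE1, a change of 1.50 (edgeR adjusted p = 0.0381). In nonTV:Malat1 Dpp4 stood at 202, 84.0 and 107, and that change of 1.17 did not pass (edgeR adjusted p = 0.636). Clusters 4 and 6 held 158 and 191 of the 390 Prg4 UMIs. Cluster 6 had 8, 3 and 2 nuclei in replicates 1, 4 and 5 of ATV:BACE1, then 17, 7 and 5 for nonTV:Malat1 and 17, 6 and 1 for OTV:Malat1. The Malat1 ASO libraries had 11 and 4. Outside cluster 6 Prg4 was at 58.4, 47.0 and 28.2 CPM in ATV:BACE1, 156, 102 and 48.1 in nonTV:Malat1, and 138 and 45.4 in Malat1 ASO. Dpp4 outside cluster 6 was at 24.6, 29.4 and 11.3 CPM in ATV:BACE1, 82.1, 25.6 and 42.8 in nonTV:Malat1, and 122 and 65.6 in Malat1 ASO. Within cluster 6 the pooled Prg4 level was 756 CPM in ATV:BACE1, 1210 in nonTV:Malat1, 1397 in OTV:Malat1 and 1537 in Malat1 ASO. The pooled Dpp4 level there was 1210, 1140, 1157 and 1179 CPM in the same order. The part of the cluster mix in these changes was not tested.

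Htr2c, the serotonin 2C receptor (an abundant choroid plexus gene), was called lower in OTV:Malat1 than in Malat1 ASO, by a log2 change of -3.59 (SE 0.626, edgeR adjusted p = 0.00559). It rested on few UMIs: replicates 1, 4 and 5 had 6, 4 and 0 in OTV:Malat1 and 6, 26 and 4 in ATV:BACE1. The Malat1 ASO replicates 1 and 5 had 9 and 44, and the 0 UMIs of OTV:Malat1 replicate 5 allow up to 26.8 CPM. Of the Malat1 ASO UMIs, 40 were in cluster 1. Without Malat1 ASO replicate 5 the change was -2.02 (edgeR adjusted p = 0.999) and without OTV:Malat1 replicate 4 -3.06 (adjusted p = 0.155), and without ATV:BACE1 replicate 4 the gene fell under the filter on low counts. The choroid plexus and ependyma list summed to 1033 to 1116 CPM in OTV:Malat1 libraries, 1196 to 1608 in Malat1 ASO and 1163 to 1883 in ATV:BACE1, and its part in the result was not tested. Ttr, the choroid plexus carrier transthyretin, made up 1274 CPM of the 1417 CPM of this list in the class, and it was also at 1079 CPM in astrocytes and 1449 in oligodendrocytes. The log2 difference of Ttr in OTV:Malat1 was -0.54 against ATV:BACE1 (SE 0.155, edgeR adjusted p = 0.996) and -0.58 against nonTV:Malat1 (SE 0.154, adjusted p = 0.453), and the latter passed without the filter on low counts (-0.61, adjusted p = 0.0421).

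**Figure D5:**
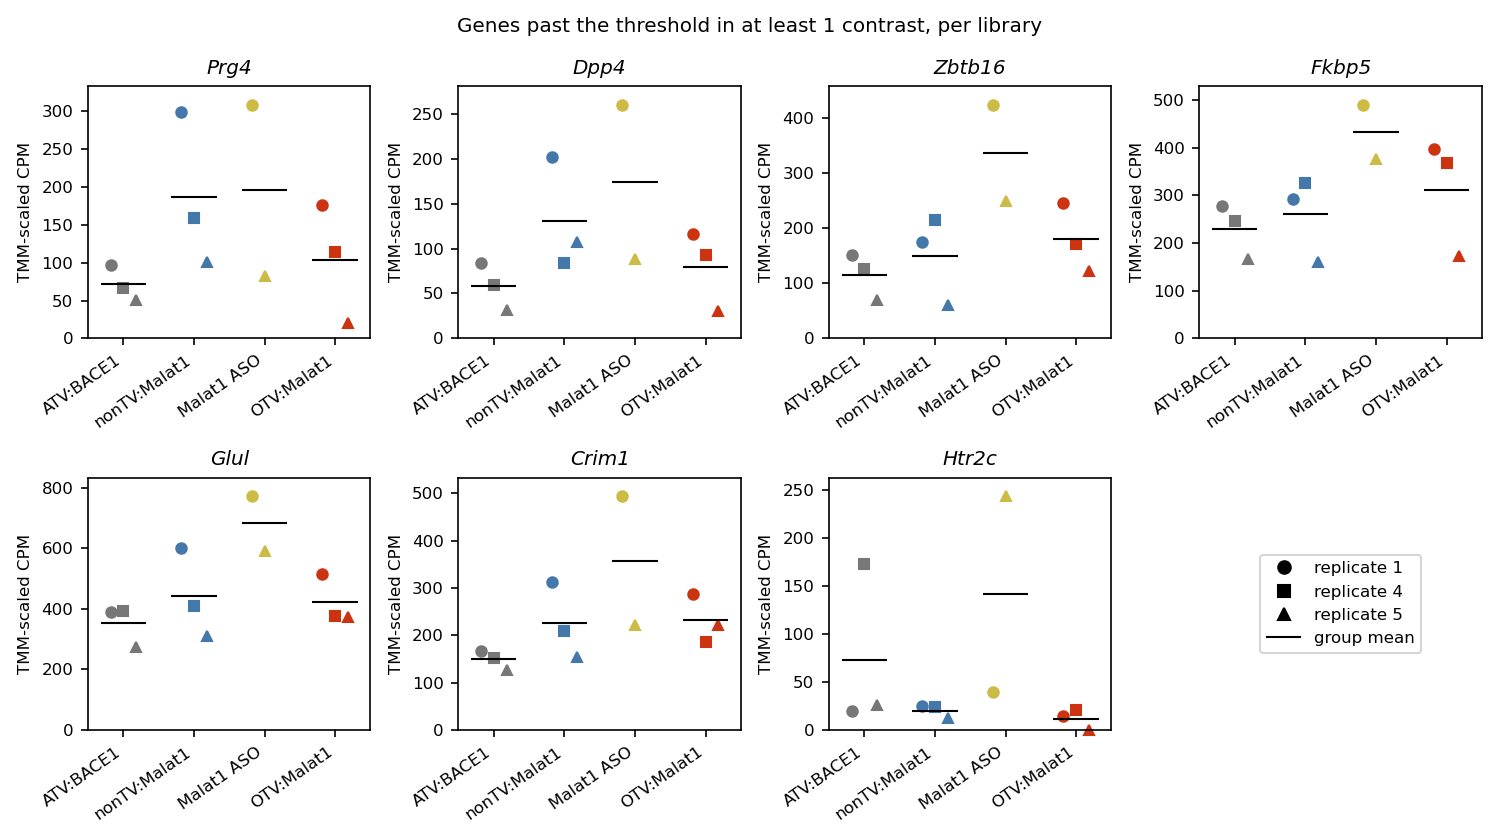
TMM-scaled CPM (y axes, from 0) of the 7 genes called in at least 1 contrast, per library (points, shapes give the replicate number) and dosing group, with group means as lines. Zbtb16, Fkbp5, Glul and Crim1 have their highest group mean in Malat1 ASO, and in Htr2c the Malat1 ASO mean rests on 1 of 2 libraries. The Malat1 ASO libraries overlap those of OTV:Malat1 in Fkbp5 and Crim1, and those of nonTV:Malat1 in Crim1 and Glul.

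Some calls depended on which nuclei were kept. With the 5 clusters led by another class left out, Zbtb16 (1.80, edgeR adjusted p = 0.000463) and Crim1 (1.29, adjusted p = 0.0268) stayed past the threshold in Malat1 ASO against ATV:BACE1. Gm6260 was then also called higher (1.59, adjusted p = 0.0268) and Fam155a lower (-1.70, adjusted p = 0.0106). Fam155a was a leading gene of cluster 9 (3646 against 176 CPM), which averaged 3.73% of the class in ATV:BACE1 and 1.31% in Malat1 ASO, and the part of this share was not tested. Prg4 (1.44), Dpp4 (1.50), Fkbp5 (0.97) and Glul (0.78) then missed it in that contrast (edgeR adjusted p = 0.0571, 0.0571, 0.0709 and 0.215). In nonTV:Malat1 against ATV:BACE1, Kcnb2, a potassium channel subunit that led cluster 4, was then called (1.22, edgeR adjusted p = 0.0394), against 0.98 and an adjusted p of 0.0806 with all nuclei. Cluster 4 was 10.5%, 3.52% and 3.76% of the class in replicates 1, 4 and 5 of ATV:BACE1 and 14.8%, 7.78% and 4.29% in nonTV:Malat1, and the part of this share in the Kcnb2 difference was not tested. The Kcnb2 difference also passed with doublets left out (1.20), in the authors' main cluster (1.30) and without the filter on low counts (0.98). Prg4 in nonTV:Malat1 (1.39, edgeR adjusted p = 0.0461) and Htr2c (-4.67, adjusted p = 0.0116) still passed. With nuclei under 1000 UMIs left out, Zbtb16 was the 1 gene called in Malat1 ASO against ATV:BACE1 (1.72, edgeR adjusted p = 0.00446).

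Single libraries carried several of these calls. Zbtb16 missed the threshold without ATV:BACE1 replicate 1 (edgeR adjusted p = 0.0571) or Malat1 ASO replicate 1 (0.0673), which leaves 1 library in that group, whose spread is then assumed to equal that of the other groups. Crim1 missed it without the same libraries (0.842 and 0.844). Prg4 in nonTV:Malat1 missed it without replicate 1 or 4 of ATV:BACE1, without any of the 3 nonTV:Malat1 libraries, and without Malat1 ASO replicate 1 (adjusted p = 0.0530 to 0.942). Glul, Dpp4, Fkbp5 and Prg4 missed it in Malat1 ASO without either Malat1 ASO library or without ATV:BACE1 replicate 1, and in some cases without other libraries, and their log2 changes stayed between 0.82 and 1.62.

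Matrix genes, the main products of these fibroblasts, were called in 0 of 14 tested members of the fibrillar collagen and proteoglycan list (22 listed) in each contrast. Their median log2 change in OTV:Malat1 against ATV:BACE1 was 0.05, against 0.00 over all genes, with members from -0.45 to 0.63. Dcn changed by -0.04 (SE 0.229), Fn1 by 0.49 (SE 0.243) and Eln by 0.26 (SE 0.256) in that contrast. Col1a2 changed by -0.45 (SE 0.228, 95% interval -0.91 to 0.01, edgeR adjusted p = 0.996), with 145, 227 and 152 TMM-scaled CPM in replicates 1, 4 and 5 of OTV:Malat1 against 194, 213 and 324 in ATV:BACE1. Of the basement membrane list 0 of 15 tested genes (20 listed) were called in any contrast, with Lama1 at 0.10, Lama2 at -0.19 and Col4a5 at -0.10 in OTV:Malat1 against ATV:BACE1. Over all genes 0 to 0.0919% were called per contrast, so neither count of 0 sets its list apart.

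Transport and retinoid genes had 0 called members, where 0 to 0.0919% of all genes were called in the 5 contrasts, so these counts set no list apart. Of 22 tested solute carriers and ABC transporters (25 listed) 0 were called in each contrast, and the medians were 0.00 in OTV:Malat1, -0.03 in nonTV:Malat1 and 0.20 in Malat1 ASO against ATV:BACE1. Slc6a13 changed by 0.05 (95% interval -0.29 to 0.38) in OTV:Malat1, -0.01 in nonTV:Malat1 and 0.15 in Malat1 ASO. Slc7a11 changed by -0.13 (SE 0.133), Slc6a20a by 0.05 (SE 0.139) and Slc38a2, a neutral amino acid transporter, by -0.08 (SE 0.166) in OTV:Malat1. Of 6 tested retinoic acid genes (16 listed) 0 were called in each contrast. Aldh1a2 changed by 0.09 (SE 0.198), Aldh1a1 by 0.26 (SE 0.243) and the receptor Rarb by -0.26 (SE 0.246) in OTV:Malat1 against ATV:BACE1.

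Secreted factors and signalling genes gave 0 called members as well, where 0 to 0.0919% of all genes were called per contrast. The growth factor and carrier list (14 of 19 tested) had a median of 0.15 in OTV:Malat1 against ATV:BACE1, and Ptgds changed by 0.19 (95% interval -0.08 to 0.47), Pdgfd, a PDGF ligand, by 0.31 (SE 0.168) and Igf1r by -0.18 (SE 0.175). The BMP, TGF-beta and Wnt list (20 of 27 tested) had medians of -0.01 in OTV:Malat1 and 0.20 in Malat1 ASO, with Bmp6 at -0.01 and 0.14, Tgfbr3 at 0.14 and 0.32, and Tcf7l2 at 0.07 and 0.21. Meningeal transcription factors (17 of 24 tested) ran from -0.26 to 0.56 in OTV:Malat1, with Foxp1 at -0.13, Bnc2 at 0.01 and Foxp2 at -0.06.

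Innate immune genes were sparse. Of 24 listed chemokines, cytokines and adhesion genes 7 were tested and 0 called in each contrast, with Il6st at -0.32 and Serping1, the C1 inhibitor, at -0.08 in OTV:Malat1. Of 27 listed genes of nucleic acid sensing and interferon response 6 were tested and 0 called. With 0 to 0.0919% of all genes called per contrast, neither count of 0 sets its list apart. Oasl2, an interferon-induced gene, had a log2 change of 1.21 (SE 0.434) in OTV:Malat1, 0.92 (SE 0.441) in nonTV:Malat1 and, for Malat1 ASO, 0.66 (SE 0.511) against ATV:BACE1, from 53.0 CPM in the class. Irf3 changed by 0.40 (SE 0.350) and Ifnar2, an interferon receptor chain, by -0.20 (SE 0.274) in OTV:Malat1.

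Of 18 listed genes of ASO uptake and transferrin receptor biology 7 were tested and 0 called, where 0 to 0.0919% of all genes were called per contrast. Fth1, ferritin heavy chain, changed by -0.20 (SE 0.160), Egfr by 0.23 (SE 0.206) and the endocytic receptor Lrp1 by -0.19 (SE 0.209) in OTV:Malat1. Among 11 tested nuclear non-coding and paraspeckle genes (12 listed) 0 were called, against the same share over all genes. Neat1, the scaffold of paraspeckles and the gene next to Malat1, stood at 984 and 957 TMM-scaled CPM in Malat1 ASO against 750, 452 and 636 in ATV:BACE1, a log2 change of 0.61 that did not pass (SE 0.186, edgeR adjusted p = 0.432). It changed by 0.50 in nonTV:Malat1 (adjusted p = 0.732) and 0.25 in OTV:Malat1 (adjusted p = 0.996). Snhg11 changed by 0.17 (SE 0.147) in OTV:Malat1, and Xist was present in the female libraries as labelled.

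The immediate-early and stress list had 2 called members, Fkbp5 and Zbtb16, among 11 tested genes (22 listed) in Malat1 ASO against ATV:BACE1, where 0.0919% of all genes were called. The list was chosen with earlier results of these data known, so this count is a description and no test of the list. The median log2 change of the immediate-early and stress list was 0.43 in Malat1 ASO, 0.39 in OTV:Malat1 and 0.19 in nonTV:Malat1, against 0.00 over all genes in each contrast. Among the marker lists, Dpp4 of the arachnoid barrier list was also called in Malat1 ASO against ATV:BACE1. Htr2c of the choroid plexus list was called only in OTV:Malat1 against Malat1 ASO, where 0.0153% of all genes were called. Hsp90aa1, a heat shock chaperone, stood at -0.46 (SE 0.237) in Malat1 ASO and did not pass.

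Among the largest changes at an unadjusted p under 0.01 were those that follow, and only Htr2c was called, in OTV:Malat1 against Malat1 ASO. In OTV:Malat1 against ATV:BACE1 they included Htr2c (-1.94), Synpr (1.48), Tmem160 (-1.47) and Cep250 (1.46). In nonTV:Malat1 against ATV:BACE1 they included Kcnk5 (1.69), Hecw1 (-1.68), Zmat4 (-1.58) and Ankrd6 (1.49). In OTV:Malat1 against nonTV:Malat1 they were Nwd2 (1.63), Bche (-1.56), Tmem132d (1.50), Gm49961 (1.46) and Pip5k1b (1.42). In OTV:Malat1 against Malat1 ASO, beside Htr2c, they were Myo16 (2.94), Cpne4 (2.60), Cyp26b1 (2.21) and Gm45847 (1.99).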

How the data were processed

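UMI counts per gene and nucleus, mapped to mm10 with Cell Ranger 5.0.0 and handled in Seurat 4 per the submitters' processing notes, were used as deposited. The class prediction score and doublet score, each a fraction from 0 to 1, and the mitochondrial percent were deposited by the authors; how the class was predicted, nuclei filtered and doublets called is not given in the sources used here. Called doublets were kept. The members and gene lists were chosen with earlier results of these data known.

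Counts of the class were summed per library and tested with edgeR 4.0.16 (R 4.3.3), with TMM scaling, a filter on low counts by group and the deposited batch as a block, and p-values were adjusted over 6529 genes. DESeq2 1.42.0 was an alternative. Class UMIs per library ran from 111984 to 465754. Intervals on shares are Wilson 95% intervals and, like the limits allowed by a count of 0 (3 counts), cover counting error only. Each library is 1 labelled mouse. Same-numbered libraries deviated together over 5124 genes (r 0.133 to 0.446 in 15 pairs, against -0.318 to 0.100 in 30 other pairs), and the number is the deposited batch. Nuclei were clustered with scanpy 1.11.5 (2000 variable genes, 15 components, 15 neighbours, Leiden resolution 0.5), and cluster folds used a pseudocount of 10 CPM. The fitting script was tested on simulated data.

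Named genes were the 4 markers, Malat1 and Neat1, each called gene, the 10 genes of at least 100 CPM with the highest ratio to another class, the 3 highest genes of each list, the 5 leading genes of each cluster and, where fewer than 5 were called, the 5 largest changes at an unadjusted p under 0.01. Some genes that this rule names are not reported here. Alternatives changed the block, scaling, filter, nuclei kept and each library in turn.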

Additional observations from a re-analysis of the deposited data

Results flagged for a closer look

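The change of Malat1 between OTV:Malat1 and ATV:BACE1 differed between leptomeningeal nuclei and vascular endothelium by a test of the difference itself. The log2 change was 1.50 higher in leptomeningeal nuclei (SE 0.207, edgeR adjusted p = 2.53e-05 over 6769 genes), and it stayed between 1.38 and 1.73 over the alternatives run.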

How the results depend on the processing

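Without the replicate block 0 genes were called in each contrast, as with DESeq2, while the block gave 1, 6 and 1 for nonTV:Malat1 and Malat1 ASO against ATV:BACE1 and for OTV:Malat1 against Malat1 ASO. Without the filter on low counts the calls against ATV:BACE1 were 1 (OTV:Malat1), 2 (nonTV:Malat1) and 11 (Malat1 ASO). OTV:Malat1 then had 4 calls relative to nonTV:Malat1 and 2 relative to Malat1 ASO, and Malat1 was called at -0.35 and -0.36 relative to ATV:BACE1 and nonTV:Malat1. The SE of these Malat1 changes was 0.060 without the filter and 0.095 with it. The nonTV:Malat1 count against ATV:BACE1 was 2 without doublets, in the authors' main cluster and without clusters led by another class, and 0 without nuclei under 1000 UMIs. The Malat1 ASO count was 3 with total counts, 1 without nuclei under 1000 UMIs and 10 in the main cluster. OTV:Malat1 against nonTV:Malat1 had 5 without doublets, and OTV:Malat1 against Malat1 ASO 0 without nuclei under 1000 UMIs, without scores under 0.5 and in the main cluster. The Malat1 change in nonTV:Malat1 turned to -0.0015 without doublets, -0.060 in the main cluster and -0.077 without clusters led by another class. The share of the class in OTV:Malat1 minus ATV:BACE1 turned to -0.135 points among non-neurons and -0.0246 without doublets, and Malat1 in cluster 1 to -0.018 at 10 nuclei. By nuclei kept, the Malat1 change in OTV:Malat1 was -0.24 without doublets, -0.17 in the main cluster, -0.12 without clusters led by another class and -0.48 without nuclei under 1000 UMIs relative to ATV:BACE1, and -0.24, -0.11, -0.04 and -0.49 relative to nonTV:Malat1. These causes were not tested.

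Leaving out each library in turn, calls ran from 0 to 1 (OTV:Malat1), 0 to 2 (nonTV:Malat1) and 0 to 9 (Malat1 ASO) against ATV:BACE1, and for OTV:Malat1 from 0 to 3 relative to nonTV:Malat1 and 0 to 4 relative to Malat1 ASO. The Malat1 change in OTV:Malat1 stayed between -0.40 and -0.28 relative to ATV:BACE1, -0.43 and -0.28 relative to nonTV:Malat1, and -0.37 and -0.10 relative to Malat1 ASO. It ran from -0.058 to 0.097 in nonTV:Malat1 and from -0.23 to 0.038 in Malat1 ASO, and in OTV:Malat1 from -0.043 to 0.058 in cluster 1 and -0.13 to 0.068 in cluster 2. Differences in share ran from -0.311 to 0.499 points (OTV:Malat1), 0.117 to 0.619 (nonTV:Malat1) and -0.137 to 0.193 (Malat1 ASO) against ATV:BACE1. For OTV:Malat1 they ran from -0.674 to 0.135 relative to nonTV:Malat1 and -0.309 to 0.501 relative to Malat1 ASO.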

Other observations

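Cluster 9 (47 nuclei) was set apart after its values were seen, so no test is given. Malat1 took 11.4%, 11.6% and 11.8% of its UMIs in ATV:BACE1 replicates 1, 4 and 5, from 7, 3 and 8 nuclei. It took 2.91%, 5.78% and 4.17% in nonTV:Malat1 (3, 6 and 7 nuclei), 4.68%, 5.25% and 6.56% in OTV:Malat1 (3 nuclei each), and 1.95% and 2.50% in Malat1 ASO replicates 1 and 5 (1 and 3 nuclei). The Wilson 95% intervals of the control libraries began at 10.5% or higher, and they cover counting error only.

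The cluster differed from the class in its markers as well. Trpm3 was at 52.3 CPM against 13616 in the other clusters and Ptgds at 680 against 6199, while Dcn was at 349 against 193 and Col1a2 at 174 in both. Dpep1, a membrane dipeptidase, was at 157 CPM against 0, and was higher in the cluster in 6 of 11 libraries. The cluster 9 levels rest on few UMIs, 3 for Trpm3, 39 for Ptgds, 20 for Dcn, 10 for Col1a2 and 9 for Dpep1. The median class prediction score of cluster 9 was 0.732, and 0 of its nuclei were called doublets.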
